A study of Mus musculus with 12 samples.

Results

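The transcripts described here encode the proteasome, and they were found by symbol: every array probe whose platform gene symbol begins with Psma, Psmb, Psmc, Psmd, Psme, Psmf or Psmg followed by a digit. The rule matched 86 of the 45281 probes on the array, which stand for 49 of the 19053 genes with 1 symbol. Of the 49 genes, 41 were measured, with 65 probes detected on at least 6 of the 12 arrays. No probe matched a Psmf symbol. Psmc3ip, a meiotic recombination cofactor, and Psme3ip1, which binds Psme3, fit the symbol rule without being proteasome subunits and were counted apart.

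The samples were RNA from adult cardiac myocytes of C57BL/6 mice aged 12 to 16 weeks, isolated with collagenase and plated on laminin in medium with BSA, penicillin-G and BDM, a contraction inhibitor. For 48 h, 6 cultures received 200 nmol/L recombinant connective tissue growth factor (CTGF), a secreted matricellular protein, and the 6 controls received none. The labels do not say whether cultures came from separate hearts, so p-values cover only differences among these samples, part of which may be technical. Each array gave 14747 to 16390 detected probes. The median correlation of an array with the others of its group lay between 0.984 and 0.993, with control 6 lowest. Of the 10 cardiac myocyte markers 9 were measured, and these were detected on all 12 arrays. All CTGF samples are numbered before all controls, so a batch that ran with the treatment cannot be told apart from it.

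The proteasome degrades proteins that carry ubiquitin chains. Its barrel-shaped core has outer rings of alpha subunits, which gate the channel, and inner rings of beta subunits, of which Psmb5, Psmb6 and Psmb7 are catalytic. The regulatory particle on the ends of the barrel recognises, deubiquitinates and unfolds substrates, with a ring of ATPases (Psmc genes) and non-ATPase subunits (Psmd genes). In the immunoproteasome, which interferon induces and which is abundant in immune cells, Psmb8 takes the place of Psmb5, Psmb9 that of Psmb6 and Psmb10 that of Psmb7. Psme1 and Psme2 form an activator ring that is induced by the same signal, and the peptides these particles make are carried by the Tap1 and Tap2 transporter for presentation on class I molecules. In heart muscle the proteasome turns over damaged and misfolded proteins.

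With CTGF, transcripts of all 5 immunoproteasome genes were lower, while 15 of the 36 other measured genes were higher and 2 lower, where 24.6% of all genes tested were higher and 21.3% lower. Psmb9 fell 3.92-fold, Psmb8 fell 3.55-fold and Psmb10 fell 1.68-fold, where Psmb9 was undetected on 1 CTGF array. On the log2 scale, values without background correction were -1.02 for Psmb9, -1.38 for Psmb8 and -0.67 for Psmb10. Psme1 and Psme2 fell less, and Psme2 turned to 0.15 on the log2 scale when arrays were left unscaled. All 10 measured endothelial markers were lower on the same CTGF arrays, and in bulk RNA fewer cells of a type and less RNA per cell cannot be told apart. In the constitutive core 5 of 11 measured genes rose and none fell, by the brightest probe of each gene. In the regulatory particle 5 of 15 rose and 2 fell, and among assembly factors 3 of 6 rose. Of these 3 assembly factors, Psmd5 was detected on 2 of 6 control arrays and passed the detection filter through the CTGF arrays alone. Without background correction Psmd5 was not called (limma adjusted p = 0.0641). Calls are from limma with Benjamini-Hochberg adjustment over all 8905 genes tested and a threshold of 0.05, on normalized log2 intensities.

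These counts stand against a background of wide change. Over all genes tested 45.8% were called, and the groups' arrays did not overlap in 25.1%. Of the 41 measured proteasome genes 15 were higher (36.6%) and 7 lower (17.1%), and 11 did not overlap (26.8%). Outside the immunoproteasome, 15 of 36 were higher (41.7%) and 2 lower (5.56%), with a median log2 fold change of 0.19 against 0.03 over all genes tested. Of these 36 genes, 83.3% had a positive log2 fold change, against 53.7% of all genes. Of the 41 genes, 9 were at 0.5 or more in absolute log2 fold change and called, a share similar to the 23.4% of all genes. A log2 fold change had a standard error of 0.11 at the median.

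**Figure D1:**
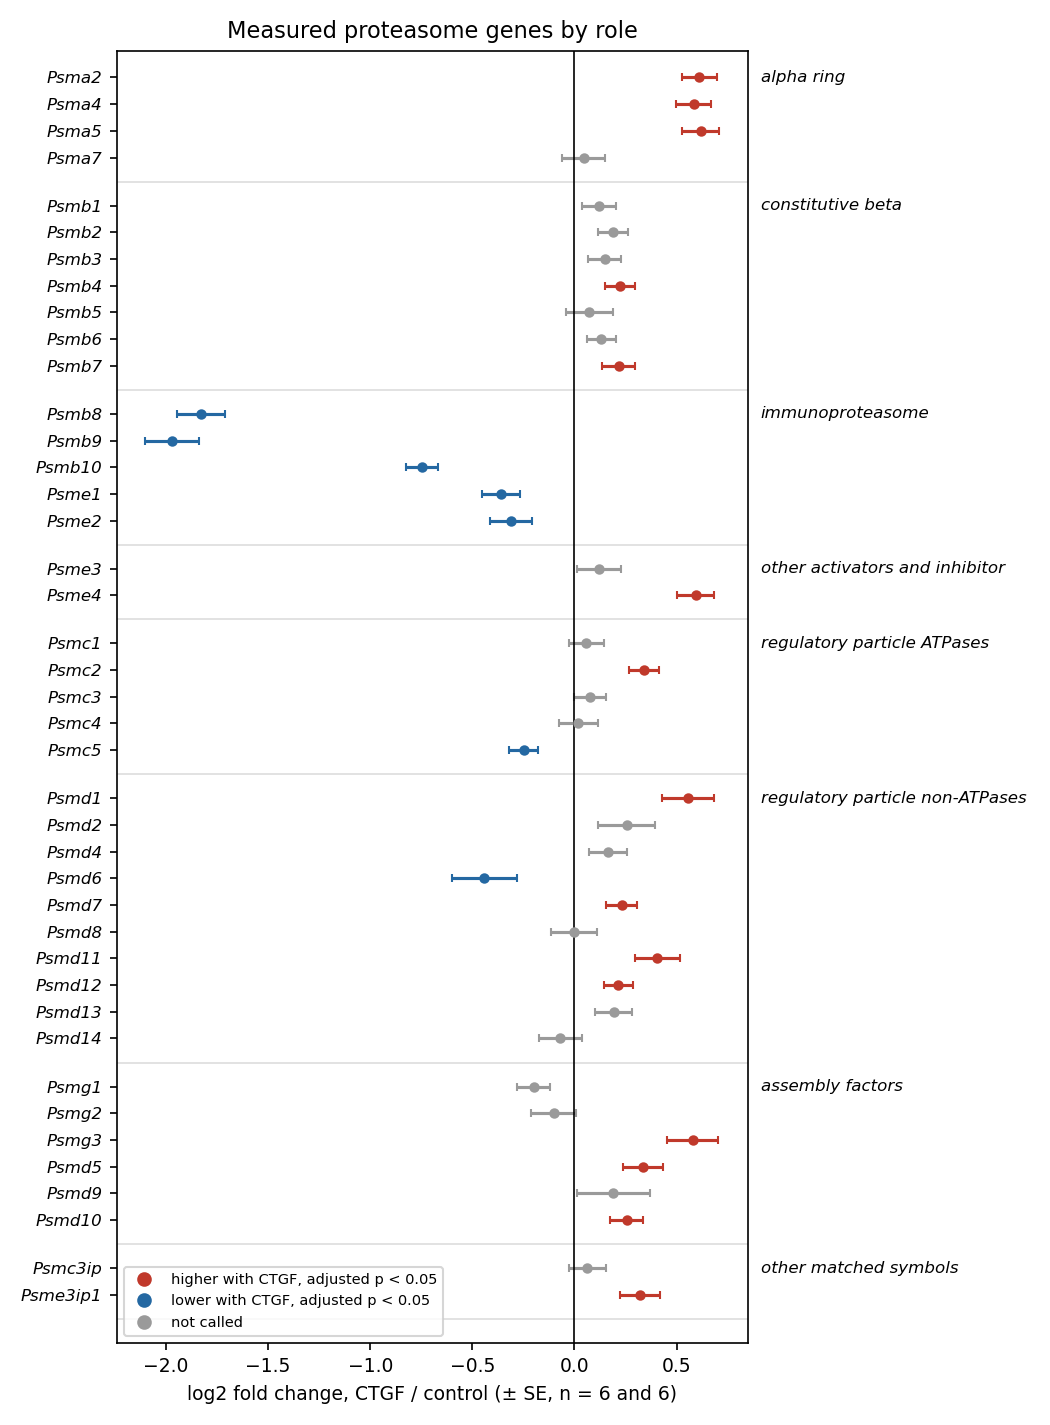
Log2 fold change (CTGF over control) of each measured proteasome gene with its limma standard error, from 6 arrays in each group, ordered by role. The 5 immunoproteasome genes lie left of 0, from -1.97 to -0.31, and Psmc5 and Psmd6 are the other called falls. Without normalization between arrays Psme2 and Psmc5 turn to 0.15 and 0.07.

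Psmb8, the immunoproteasome counterpart of the chymotrypsin-like subunit, had normalized log2 intensities from 8.45 to 8.99 on the control arrays, with a median of 8.67. With CTGF they ran from 6.62 to 7.07, with a median of 6.89. The highest CTGF array thus lay below the lowest control by more than either group's whole range. By limma the transcript changed by -1.83 ± 0.12 on the log2 scale (SE, adjusted p = 1.09e-08).

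Psmb9, the counterpart of the caspase-like subunit, ran from 7.03 to 7.46 in controls (median 7.16) and from 4.81 to 5.62 with CTGF (median 5.25). The groups did not overlap, and the change by limma was -1.97 ± 0.13 on the log2 scale (SE, adjusted p = 1.55e-08). Its probe was detected on 5 of 6 CTGF arrays, so the treated level lay near background. Without background correction the log2 fold change of Psmb9 was -1.02, still past the threshold but over 1.5 times smaller. The same setting gave -1.38 for Psmb8.

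Psmb10, the counterpart of the trypsin-like subunit, lay between 9.61 and 9.91 in controls (median 9.76) and between 8.90 and 9.13 with CTGF (median 8.99). The groups stood apart, at a log2 fold change of -0.75 ± 0.08 (SE, limma adjusted p = 2.33e-06). A second probe of Psmb10 gave -0.75 as well.

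The activator genes moved less. Psme1 ran from 11.36 to 11.70 in controls (median 11.53) and from 10.99 to 11.42 with CTGF (median 11.14). CTGF 1 lay within the control range, and the other 5 CTGF arrays lay below it. By limma Psme1 changed by -0.36 ± 0.09 (SE, adjusted p = 0.00548), with -0.27 at its second probe, and with arrays left unscaled it was -0.03 (adjusted p = 0.876).

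Psme2 ran from 8.33 to 8.86 in controls (median 8.58) and from 8.07 to 8.41 with CTGF (median 8.28). Several arrays of the groups overlapped. By limma it fell by 0.31 ± 0.10 on the log2 scale (SE, adjusted p = 0.0214), yet the value turned to 0.15 with no scaling between arrays and to 0.12 with median scaling, neither past the threshold. Without CTGF replicate 1 the adjusted p of Psme2 was 0.0502. Relative to the median of all genes Psme2 stood at -0.34 under quantile normalization and at -0.20 under both of those scalings.

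**Figure D2:**
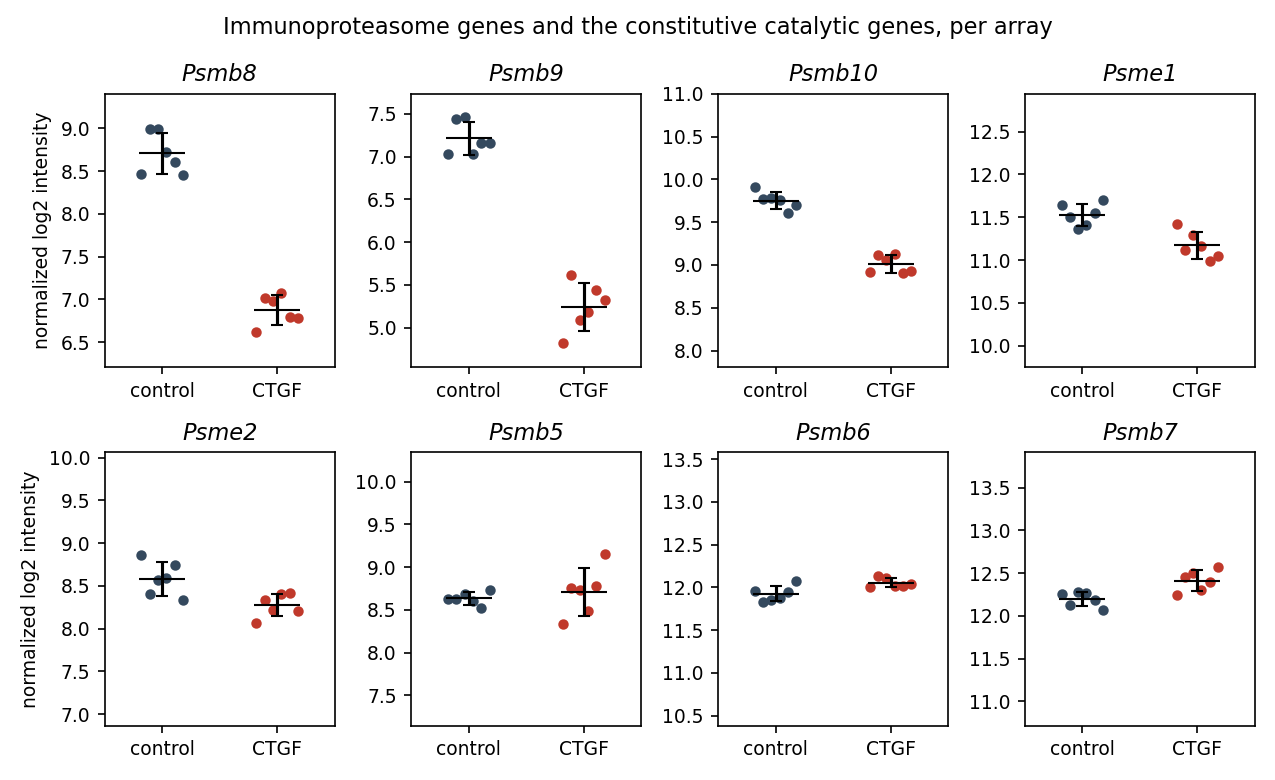
Normalized log2 intensity on each array for the 5 immunoproteasome genes and for the constitutive catalytic genes Psmb5, Psmb6 and Psmb7, with mean and SD over 6 arrays a group and axes of equal span. For Psmb8, Psmb9 and Psmb10 the CTGF arrays lie below all controls, Psme1 and Psme2 overlap, and the constitutive genes show small differences.

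A second Psmb8 probe was detected on all 6 control arrays and on none of the 6 CTGF arrays. Since the treated level was not above background, its fall is given as a bound, at least 1.51-fold, with measured mean log2 values of 5.43 in controls and 4.62 with CTGF. For the bound, each CTGF array contributed the lowest signal of any probe detected on it, or the probe's own signal where that was higher. This probe passed the detection filter only through the controls, so its direction adds no support to that of the brighter probe.

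The constitutive catalytic genes did not follow. Psmb5, the chymotrypsin-like subunit, ran from 8.52 to 8.74 in controls (median 8.63) and from 8.34 to 9.15 with CTGF (median 8.75), a wider spread around a similar level. By limma it was not called, at 0.07 ± 0.12 (SE, adjusted p = 0.631, 95% interval -0.17 to 0.32). Without CTGF replicate 6, its highest array, the value turned to -0.01.

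Psmb6, the caspase-like subunit, ran from 11.83 to 12.07 in controls (median 11.91) and from 12.00 to 12.13 with CTGF (median 12.03). It was not called, at 0.13 ± 0.07 (SE, limma adjusted p = 0.151, 95% interval -0.02 to 0.28). Psmb7, the trypsin-like subunit, ran from 12.06 to 12.28 in controls (median 12.22) and from 12.25 to 12.57 with CTGF (median 12.43). Only CTGF 1 lay inside the control range, and Psmb7 passed the test at 0.22 ± 0.08 (SE, limma adjusted p = 0.0383). That call was lost without CTGF 2, 3, 5 or 6 or control 2, 5 or 6 (adjusted p up to 0.0816). Of the 4 measured Psmb7 probes 3 were called higher and 1 lower, at -0.26.

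Each immunoproteasome gene was then set against the gene it replaces on the same array, which removes any shift common to both probes of an array. The log2 difference of Psmb8 minus Psmb5 changed with CTGF by -1.90 ± 0.17 (SE, n = 6 and 6, two-sided exact permutation p = 0.00216). For Psmb9 minus Psmb6 the change was -2.10 ± 0.15 (SE, exact permutation p = 0.00216), and for Psmb10 minus Psmb7 it was -0.96 ± 0.08 (SE, exact permutation p = 0.00216). Without background correction the changes were -1.45, -1.15 and -0.89 in the same order, so that of Psmb9 minus Psmb6 was over 1.5 times smaller, with the calls kept. In all 3 pairs every CTGF array lay below every control array. The p of 0.00216 is the smallest that 6 against 6 arrays can give, and adjustment over the 3 pairs left it at 0.00216. Such a difference shows unequal change of the paired transcripts and does not say that either one was constant. Each gene was taken at its brightest probe. Another Psmb7 probe was called lower, at -0.26 (limma adjusted p over probes = 0.0153), and a pair with that probe was not computed.

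**Figure D3:**
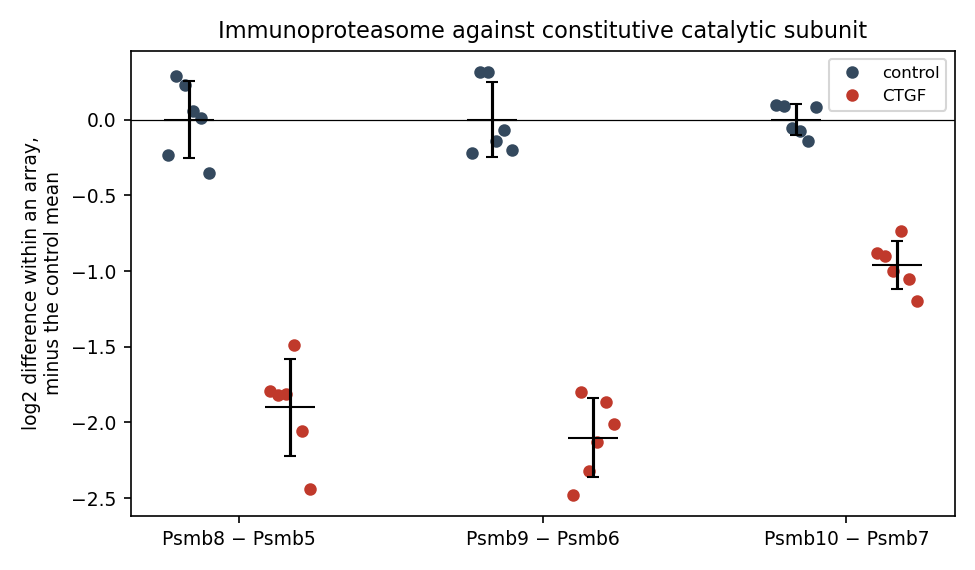
Log2 difference within each array between an immunoproteasome gene and its constitutive counterpart, with the control mean of each pair set to 0 and bars at mean and SD of 6 arrays. The CTGF arrays lie below the controls in all 3 pairs, with mean changes of -1.90, -2.10 and -0.96.

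Promoter windows are shown for the 4 immunoproteasome genes with the lowest adjusted p. Their known inducers act through short DNA motifs, and the part of such motifs in these changes was not tested. The sequences are from RefSeq (GRCm38.p6), 250 bases before to 50 after the annotated gene start, and 41 of the 49 genes had an entry. Capitals mark motif matches.
Psmb8, chr17:34197945-34198244, plus strand: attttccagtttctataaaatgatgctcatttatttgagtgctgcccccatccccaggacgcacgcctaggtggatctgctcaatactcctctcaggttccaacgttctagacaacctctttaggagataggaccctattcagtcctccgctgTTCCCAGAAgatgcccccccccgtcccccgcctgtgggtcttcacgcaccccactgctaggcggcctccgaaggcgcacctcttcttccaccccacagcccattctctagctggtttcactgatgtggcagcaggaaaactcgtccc
Psmb9, chr17:34187281-34187580, minus strand: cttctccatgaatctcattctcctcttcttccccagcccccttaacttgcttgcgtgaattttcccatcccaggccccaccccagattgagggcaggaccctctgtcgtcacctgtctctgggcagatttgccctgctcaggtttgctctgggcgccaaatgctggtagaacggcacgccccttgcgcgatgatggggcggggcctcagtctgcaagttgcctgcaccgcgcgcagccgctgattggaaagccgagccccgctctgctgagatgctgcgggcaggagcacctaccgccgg
Psmb10, chr8:105938343-105938642, minus strand: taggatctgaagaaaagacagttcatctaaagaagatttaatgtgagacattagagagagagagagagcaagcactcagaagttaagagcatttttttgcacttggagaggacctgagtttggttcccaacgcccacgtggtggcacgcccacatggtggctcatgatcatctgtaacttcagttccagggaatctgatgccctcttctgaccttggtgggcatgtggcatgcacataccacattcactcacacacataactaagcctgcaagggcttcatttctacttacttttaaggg
Psme1, chr14:55578244-55578543, plus strand: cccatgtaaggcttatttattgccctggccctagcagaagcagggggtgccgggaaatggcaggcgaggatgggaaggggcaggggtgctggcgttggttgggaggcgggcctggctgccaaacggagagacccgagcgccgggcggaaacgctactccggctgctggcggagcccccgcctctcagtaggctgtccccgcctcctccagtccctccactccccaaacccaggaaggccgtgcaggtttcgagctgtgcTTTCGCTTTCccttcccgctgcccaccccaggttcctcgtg

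Both strands were searched for the core of the interferon-stimulated response element (GAAA, any 2 bases, then GAAA), the gamma-activated site (TTCNNNGAA), which reads alike on both strands, and the core of the antioxidant response element (TGACNNNGC), the motif used by Nfe2l1 and Nfe2l2. In Psmb8 the capitals mark a gamma-activated site, TTCCCAGAA, that begins 97 bases before the gene start. In Psme1 they mark a response element core on the opposite strand, TTTCGCTTTC, just after the start. The Psmb9 and Psmb10 windows hold none of these letter patterns, which says nothing of other parts of those genes. The motifs occur in 3.44%, 8.30% and 12.4% of 32851 promoters of the same length, in the order given. Among the 41 proteasome genes with a window, 5 held the first, 3 the second and 6 the third. A gene counted when any of its windows matched, whereas the shares are over single windows. Of the 5 immunoproteasome genes 1 held the first, 1 the second and 0 the third, too few genes to compare with these shares. The genes with the third were Psmb5, Psmb6, Psme4, Psmc6, Psmd12 and Psmd9. A match is a description of letters and not evidence of binding.

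In the same annotation the mouse genes Psmb9, Tap1, Psmb8 and Tap2 follow each other on chromosome 17, within the histocompatibility region. All of them were lower with CTGF, Tap1 by -0.61 ± 0.16 and Tap2 by -1.31 ± 0.24 (SE, limma adjusted p = 0.00545 and 0.00037). Tap1 was detected on 4 of 6 CTGF arrays, and its groups overlapped. Psme1 and Psme2 lie near each other on chromosome 14 with Emc9 between them, and Psmb10 lies on chromosome 8 away from both.

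In the alpha ring 3 of the 4 measured genes rose and had no overlap between groups. Over all genes tested 24.6% were higher and 25.1% had no overlap. Psma2 ran from 12.69 to 13.03 in controls (median 12.84) and from 13.30 to 13.56 with CTGF (median 13.47), a log2 fold change of 0.61 ± 0.08 (SE, limma adjusted p = 3.45e-05). Psma4 ran from 11.27 to 11.68 (median 11.54) and from 12.00 to 12.29 (median 12.12), with 0.58 ± 0.09. Psma5 ran from 11.67 to 12.16 (median 11.98) and from 12.43 to 12.70 (median 12.53), with 0.62 ± 0.09. The 3 rises were of similar size, up to 1.53-fold. Psma7, also a ring subunit, was not called at 0.04 ± 0.11 (SE, limma adjusted p = 0.756), and its second probe gave 0.03. Psma1, Psma3 and Psma6 were detected on 0 arrays and Psma8, the testis form, on at most 5, so the ring is only partly measured.

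At their brightest probes, the 7 constitutive beta genes all had small positive log2 fold changes, from 0.07 to 0.22, where 53.7% of all genes were positive. A dimmer Psmb7 probe was called lower, at -0.26. Of the 7, 2 passed the test as higher, a share near the 24.6% of all genes. Besides Psmb7, the structural subunit gene Psmb4 rose, from between 12.66 and 12.83 in controls (median 12.76) to between 12.82 and 13.12 (median 12.98), by 0.22 ± 0.07 (SE, limma adjusted p = 0.0234). Its groups overlapped at CTGF 6 alone, and its call was lost without CTGF 2 or control 2 (adjusted p up to 0.0564). Psmb2 missed the threshold at 0.19 ± 0.07 (adjusted p = 0.0503), and Psmb1 and Psmb3 had values of 0.12 and 0.15. Psmb11, the thymus form of the catalytic subunit, was detected on 0 arrays.

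Among other activators, Psme4, which caps the core and promotes histone degradation, rose from between 11.54 and 11.91 (median 11.78) to between 12.15 and 12.57 (median 12.35). The groups did not overlap, with a log2 fold change of 0.59 ± 0.09 (SE, limma adjusted p = 9.55e-05), and a second probe gave 0.85. Psme3, the nuclear activator related to Psme1 and Psme2, was not called at 0.12 ± 0.11 (95% interval -0.11 to 0.35).

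Of the 5 measured ATPases of the regulatory particle, which unfold substrates, 1 rose and 1 fell. These counts are near the shares over all genes, 24.6% higher and 21.3% lower. Psmc2 ran from 12.21 to 12.43 in controls (median 12.36) and from 12.60 to 12.79 with CTGF (median 12.68), a rise of 0.34 ± 0.07 (SE, limma adjusted p = 0.00144). Psmc5 ran from 11.60 to 11.81 (median 11.74) and from 11.39 to 11.53 (median 11.50), a change of -0.25 ± 0.07 (adjusted p = 0.00936) that became 0.07 when arrays were not scaled and 0.05 with median scaling. Neither gene had overlapping groups, as was so for 25.1% of all genes. The second probe of each had the opposite sign and was not called, at -0.14 for Psmc2 and 0.06 for Psmc5. Psmc1, Psmc3 and Psmc4 had values between 0.02 and 0.08, and Psmc6 was detected on at most 3 arrays.

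Of 10 measured non-ATPase subunits 4 rose and 1 fell, where 24.6% of all genes were higher and 21.3% lower. Psmd1, a large scaffold subunit of the base, ran from 11.62 to 12.37 in controls (median 12.19) and from 12.40 to 12.99 with CTGF (median 12.71), with a log2 fold change of 0.56 ± 0.13 (SE, limma adjusted p = 0.00238). The groups were just apart. Psmd11, a lid subunit, ran from 8.94 to 9.30 (median 9.08) and from 9.17 to 9.89 (median 9.45), rising by 0.41 ± 0.11 (adjusted p = 0.00767). Psmd7, the lid partner of the deubiquitinase Psmd14, ran from 11.10 to 11.26 (median 11.16) and from 11.25 to 11.52 (median 11.45), rising by 0.23 ± 0.08 (adjusted p = 0.0222), a call lost without CTGF 3 or 5 (adjusted p up to 0.0517).

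Psmd12, another lid subunit, ran from 10.74 to 10.97 (median 10.83) and from 11.01 to 11.16 (median 11.05), without overlap, and rose by 0.21 ± 0.07 (SE, limma adjusted p = 0.0214), or 0.0513 without CTGF 5. Its second probe was called lower, at -0.41 (limma adjusted p over probes = 0.0389). Psmd6, also of the lid, ran from 6.40 to 7.12 (median 6.72) and from 5.75 to 6.80 (median 6.30), falling by 0.44 ± 0.16 (adjusted p = 0.0338). The Psmd6 groups overlapped widely, and its call was lost without CTGF 2, 3 or 5 or control 2, 4 or 5 (adjusted p up to 0.0789), with unscaled arrays (adjusted p = 0.701) and with median scaling (0.623). The ubiquitin receptor gene Psmd4 (0.17), the scaffold gene Psmd2 (0.26, detected on 3 of 6 control arrays), Psmd13 (0.19), Psmd8 (0.00) and Psmd14 (-0.07) were not called. Psmd3 was detected on 0 arrays.

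Assembly factors build the core (Psmg genes) or the ATPase base (Psmd5, Psmd9 and Psmd10) and are not part of the finished particle. Psmg3 ran from 6.57 to 7.21 in controls (median 6.68) and from 7.03 to 7.64 with CTGF (median 7.39), rising by 0.58 ± 0.13 (SE, limma adjusted p = 0.00156). Its overlap came from control 1, the 1 control array above the lowest CTGF array. Psmd5 ran from 4.52 to 5.02 (median 4.84) and from 5.02 to 5.35 (median 5.14), rising by 0.34 ± 0.10 (adjusted p = 0.0108). It was detected on 2 of 6 control arrays and so passed the filter through the CTGF arrays alone. Without background correction Psmd5 was at 0.12 and not called (adjusted p = 0.0641).

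Psmd10, known as gankyrin, ran from 9.17 to 9.47 in controls (median 9.25) and from 9.39 to 9.65 with CTGF (median 9.55), rising by 0.26 ± 0.08 (SE, limma adjusted p = 0.0171). Psmg1 (-0.20, adjusted p = 0.0566), its partner Psmg2 (-0.10) and Psmd9 (0.19) were not called, and Psmg4 was detected on 0 arrays. Of the symbols counted apart, Psme3ip1 ran from 7.77 to 8.32 (median 8.07) and from 8.26 to 8.46 (median 8.37), rising by 0.32 ± 0.10 (adjusted p = 0.0147), and Psmc3ip was at 0.06.

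Different probes of a gene did not always give the same answer. Of the 65 measured probes 22 were called higher, 12 lower and 31 not, against 43.5% called of all 15038 measured probes. Among 18 genes with more than 1 measured probe, 5 had probes of both signs and 2 had probes called in both directions. Psmb7 had 3 probes that rose, from 0.22 to 0.27, and 1 that fell, at -0.26. Psmd12 had 0.21 at the probe used and -0.41 at the other, and the mean of both turned it to -0.10. Psmd1 had 0.56 and 0.49 at its brighter probes and -0.05 at the third. Over the mean of a gene's probes, Psmb7, Psmc2, Psmc5 and Psmd11 kept their sign and lost their call (adjusted p = 0.144, 0.294, 0.236 and 0.0545). The transcript forms that each probe binds were not tested. Psmb10 and Psme1 had both probes lower, each detected on all 12 arrays. The dimmer Psmb8 probe was measured through the controls alone and is no check on the brighter one.

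**Figure D4:**
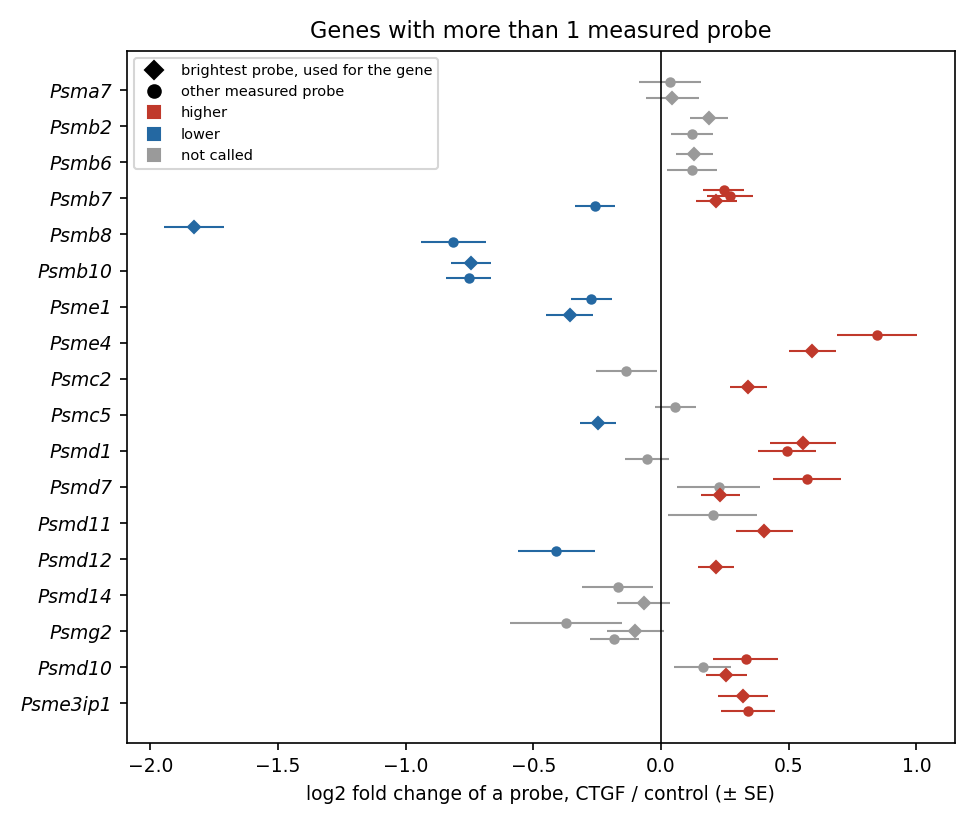
Log2 fold change with standard error of every measured probe for the 18 genes with more than 1, where the diamond is the brightest probe, used for the gene, and circles are the others. Psmb7 and Psmd12 have probes called in both directions, while Psmb10 and Psme1 have both probes lower under quantile normalization. The dimmer Psmb8 probe was detected on control arrays alone.

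Directions were also set against the scaling between arrays. With no normalization between arrays, the median over all genes moved to 0.35 on the log2 scale, and with median scaling to 0.32. The genes outside the immunoproteasome then had 29 and 27 higher of 36 and 0 lower, where 49.1% and 47.1% of all genes were higher and 7.80% and 8.33% lower. The immunoproteasome had 3 lower in each, Psmb8, Psmb9 and Psmb10. Relative to the median of all genes, the immunoproteasome median was -0.78 under quantile normalization and -0.67 under both of the others. The constitutive core median was 0.16 and 0.12 above it, and the regulatory particle median was 0.13 and 0.07 above it. The order of these groups was thus kept, while the number of rises in the core and regulatory particle was not.

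**Figure D5:**
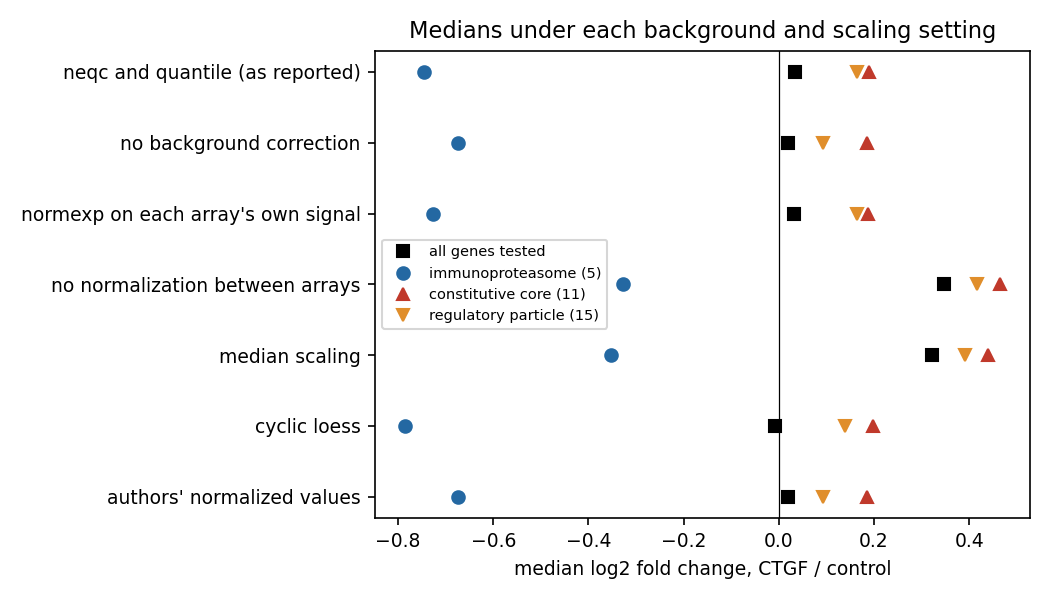
Median log2 fold change of all genes tested, of the 5 immunoproteasome genes, the 11 measured constitutive core genes and the 15 measured regulatory particle genes under 7 background and scaling settings. The immunoproteasome median is below and the other medians above that of all genes in each, although Psme2 and Psmc5 turn sign with unscaled arrays and with median scaling.

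Other genes of the pathway were read from lists. Of 8 measured regulators of proteasome genes 3 rose and 1 fell, where 24.6% of all genes were higher and 21.3% lower. With unscaled arrays 5 rose and 0 fell, where 49.1% and 7.80% of all genes did. Nfe2l1, the transcription factor that restores proteasome genes when the proteasome is inhibited, rose by 0.45 ± 0.12 (SE, limma adjusted p = 0.00663). Its small partner Mafg rose by 1.30 ± 0.08 (adjusted p = 6.24e-09) and Stat3 by 0.62 ± 0.18 (adjusted p = 0.01), while Foxo3 fell by 0.38 ± 0.10 (adjusted p = 0.00822), a call lost without normalization between arrays, where Foxo3 was at 0.00. Nfe2l2 was not called, at 0.47 ± 0.27.

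Of 8 measured genes that deliver substrates 3 rose and none fell, against the same 24.6% and 21.3% of all genes, and 6 rose with unscaled arrays, against 49.1%. Nploc4, Vcp and Ufd1, which together form the segregase that extracts ubiquitinated proteins, rose by 0.57 ± 0.11, 0.46 ± 0.09 and 0.39 ± 0.10 (SE, limma adjusted p = 0.000596, 0.000853 and 0.00695). All 3 were without overlap between groups, as were 25.1% of all genes. Of 9 measured bound factors and further subunits 2 rose (24.6% of all genes), Fbxo7 at 0.49 (adjusted p = 0.0482, or 0.0529 under cyclic loess, where 1 of the list rose and 1 fell) and the ligase Ube3c at 0.32 (adjusted p = 0.0277), and the core maturation factor Pomp was at -0.01. Of 5 ubiquitin and conjugation genes 2 fell, the activating enzyme gene Uba6 at -1.13 ± 0.15 (adjusted p = 2.11e-05) and Ube2d3 at -0.22 (adjusted p = 0.0481), which turned to 0.18 without normalization between arrays.

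The immunoproteasome genes are interferon targets, and a list of interferon regulators and antigen processing genes was read on the same arrays. Any link of this list to the immunoproteasome fall was not tested. Of 16 measured interferon regulators and antigen processing genes 11 fell and none rose, with a median of -0.76, and 9 fell without normalization between arrays, where 5 of the 16 had positive values. Of all genes 21.3% and 7.80% were lower under these settings. Stat2 was detected on 1 of 6 CTGF arrays and passed the filter through the controls alone. Irf7, which drives transcription of interferon genes, changed by -2.28 ± 0.10 (SE, limma adjusted p = 3.42e-10). The ubiquitin-like modifier gene Isg15 changed by -1.997 ± 0.127 and Usp18, which removes it from proteins, by -1.92 ± 0.10. The summed linear intensity of the list was 9057 to 10290 on CTGF arrays and 14550 to 19140 on controls. B2m (mean log2 intensity 13.01 in controls, 11.92 with CTGF) and Pdia3 (11.95 and 11.58) were its brightest genes. The sum thus describes these genes more than the list. Irf2, Nlrc5, Tapbp, Tapbpl and Calr were not called.

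Endothelial markers were lower on the CTGF arrays as well, where 21.3% of all genes were lower. Of the markers measured for macrophages and myeloid cells, fibroblasts and myocytes, a part was called lower and 0 higher. With unscaled arrays 2 of the 5 measured fibroblast markers were called higher, where 49.1% of all genes were. Of 12 endothelial markers 10 were measured, Kdr and Erg were detected on 0 arrays, and all 10 fell, with a median of -1.66 and a summed linear intensity of 2042 to 2476 with CTGF against 6851 to 8567 in controls. Tie1 among them was detected on 2 of 6 CTGF arrays and so passed the filter through the controls alone.

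Of 12 macrophage and myeloid markers 4 were measured, with sums of 128 to 166 against 154 to 244, and Ptprc, C1qa and Fcgr3 were detected on 0 arrays. Laptm5 fell by 0.62 on the log2 scale (limma adjusted p = 0.00381), a call lost with unscaled arrays (adjusted p = 0.115) and with median scaling (0.0807). Lyz2 was lower too, but was detected on 2 of 6 CTGF arrays and passed the filter through the controls alone. Csf1r (0.14) and Cd14 (0.18) were not called. None of 5 lymphocyte markers was measured.

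Of 8 fibroblast markers 5 were measured. Pdgfra changed by -2.35, and Tcf21 by -1.43 with detection on 2 of 6 CTGF arrays, so that it too passed through the controls alone. Col1a2 (0.34), Lum (0.14) and Dcn (-0.13) were not called. The summed intensity of 5087 to 5999 against 3966 to 7280 was mostly that of Dcn, and describes that gene more than the list.

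Of 9 measured myocyte markers 3 fell, Tnni3, Actc1 and Pln, where 21.3% of all genes were lower. With unscaled arrays Actc1 and Pln lost their call (limma adjusted p = 0.0524 and 0.0598), where 7.80% of all genes were lower. With median scaling 3 were lower, where 8.33% of all genes were. All 9 myocyte markers had negative log2 fold changes, with a median of -0.17, where 53.7% of all genes were positive. With unscaled arrays 2 of them were positive, and the median was -0.19. Relative to the median of all genes, the myocyte median was -0.20 under quantile normalization. It was -0.53 both with unscaled arrays and with median scaling. Their list summed to 199700 to 230300 with CTGF against 228500 to 246700. The part of these cell types in the fall of the immunoproteasome transcripts was not tested.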

How the data were processed

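The 12 arrays, 6 with CTGF and 6 controls, were grouped by sample title. The authors deposited unnormalized linear bead intensity for each probe on each array, with a detection p-value, per the file headers, and a second table of normalized intensity. Slides and scanner software are not named in the sources used here. Probe names came from the platform annotation, updated through the GRCm38.p6 gene table. No genome coordinates of probes are given, since the files name no build.

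Intensities were normalized as neqc does in limma 3.58.1 (R 4.3.3), with background from the detection p-values, an offset of 16, quantile normalization and log2. Fold changes of dim genes are understated by the offset. The 15038 probes with a detection p under 0.05 on 6 or more arrays were fitted with lmFit and eBayes, two-sided. Each gene took its brightest probe (8905 genes), and Benjamini-Hochberg adjustment ran over genes. A first fit, over the genes alone, gave 16 proteasome genes higher and 8 lower. The fit over all measured probes replaced it after both counts were seen, to follow the processing used for the whole series. Each SE is limma's, and the number of arrays limits the precision. Exact permutation tests used SciPy 1.17.1 (Python 3.11.15). Scripts were tested on simulated data.

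The genes and lists were chosen with earlier results of these data known. Values per group were given for the 5 immunoproteasome genes, Psmb5, Psmb6 and Psmb7, and up to 5 called genes of each other role with the largest absolute change. Of each pathway list up to 4 called genes with the largest change were named, or the 2 brightest if under 2 were called. Tap1, B2m, Pdia3, Foxo3, Nfe2l2, Pomp and the other uncalled list genes outside that rule were named after their values were seen. The alternatives were other background corrections, scalings, detection filters, probe summaries, array weights, variance models, a stricter threshold, a block on replicate number and leaving out arrays in turn.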

Additional observations from a re-analysis of the deposited data

Results flagged for a closer look

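In 3 of 82 groups of 6 arrays, 1 array stood far from the others of its group for a proteasome gene, by Dixon's test. Chance alone would mark about 1 group in 20. Psmd1 was at 11.62 on control 6, where the next lowest control was at 12.155 and the highest at 12.373, and without control replicate 6 its log2 fold change was 0.45 and still called (limma adjusted p = 0.00246). Psmc3 was at 11.054 on CTGF 6, with the next lowest at 11.259. Psmd4 was at 13.063 on CTGF 6, with the next lowest at 13.411. Control 6 also had the lowest median correlation with its own group (0.984), and the counts of proteasome genes were 15 higher and 7 lower without it.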

How the results depend on the processing

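Over 26 alternatives, 9 of the 24 proteasome genes described with values per group kept their direction and their side of the threshold in each one run, among them Psmb8, Psmb9, Psmb10, Psma2, Psma4 and Psma5. The 3 within-array differences kept theirs too. With arrays left unscaled and with median scaling, proteasome genes higher were 29 and 27 (all outside the immunoproteasome) and lower 3 and 3, all 3 in the immunoproteasome and 0 outside it. The medians were then -0.33 and -0.35 (immunoproteasome), 0.46 and 0.44 (constitutive core) and 0.42 and 0.39 (regulatory particle), Psme2 turned to 0.15 and 0.12, and Psmc5 to 0.0702 and 0.0451. At an adjusted p under 0.01, 8 genes were higher, and 1 outside the immunoproteasome was lower. The regulatory particle median was 0.0933 with no background correction, 0.0930 on the authors' normalized values, and 0.0784 both with no detection filter and for the mean of the detected probes. The immunoproteasome median was -0.55 over genes detected on all 12 arrays, where Psmb9 drops out. Psmd12 turned to -0.10 for the mean of its probes, and Psmb5 to -0.0149 without CTGF replicate 6.

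Leaving out 1 array at a time gave 12 to 16 higher and 6 to 8 lower, 4 to 5 of these in the immunoproteasome and 1 to 3 outside it, where Psmd6 lost its call. The medians ranged from -0.78 to -0.71, from 0.16 to 0.20 and from 0.13 to 0.19 in the order above, and the within-array differences from -1.98 to -1.79, -2.16 to -2.03 and -1.01 to -0.91. Psmb7 lost its call in 7 of these 12 fits and Psmd6 in 6. Fitting the genes alone, an alternative added after the data were seen, gave 16 higher and 8 lower, by adding Psmb2 (adjusted p = 0.0429) and Psmg1 (0.0495). Samples that share a replicate number did not deviate together (correlations from -0.05 to 0.03), so the numbers do not pair them. The replicate block gave 11 genes higher and 6 lower, with 1 outside the immunoproteasome. A block on slide was not run, since no slide is given in the sources used here. The cause of these shifts was not tested.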
